A study of Mus musculus with 6 samples.

Results

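Endothelial cells line the blood vessels that grow into the developing face, and 10 genes that mark them were followed here in RNA-Seq of craniofacial tissue from control and *Rbfox2* mutant mouse embryos. The genes were chosen by name, as known markers of the endothelium, with earlier results of these data known. They are *Pecam1*, *Cdh5*, *Kdr*, *Flt1*, *Tek*, *Tie1*, *Emcn*, *Erg*, *Sox17* and *Cldn5*. Each name matched 1 of the 38553 genes in the expression table. The labels give the genotype of the 3 controls as Rbfox2 flox/flox, with no Cre named, and that of the 3 mutants as Pax3Cre/+ with the same floxed alleles, all at E12.5. The mice were on mixed genetic backgrounds. Pax3Cre is a knock-in at *Pax3*, so that by these labels the mutants also carried a modified copy of *Pax3* that the controls lacked. It acts in premigratory and migratory neural crest and in paraxial mesoderm and somite derivatives, and the tissue was not sorted, so that each value sums over cells with and without the deletion.

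Values are FPKM, fragments mapped to a gene corrected for gene length and library depth, and differences are given on the log2(FPKM + 1) scale, which understates changes of low genes. In bulk tissue, fewer endothelial cells and less RNA per endothelial cell cannot be told apart. FPKM summed to between 528123 and 590174 per sample. *Rbfox2* itself was lower in every mutant (34.3 to 38.1 FPKM) than in every control (58.4 to 65.0 FPKM), with a log2 difference of -0.75 (SE 0.079). No gene passed an adjusted p of 0.05 (limma, 0 of 10061 genes, 0%), and *Rbfox2* had an adjusted p of 0.138. The first replicate of each group stood apart from the other 4 samples. The 4 Y-linked genes examined summed to 57.7 and 55.5 FPKM in mutant replicates 1 and 2 and to no more than 0.217 FPKM in the other 4 samples. By these genes, mutant replicates 1 and 2 were male and no control was, so that sex and genotype cannot be fully told apart. Of cells other than endothelium, 10 neuron markers summed to 691 to 791 FPKM in controls and 848 to 938 FPKM in mutants, and 10 cranial mesenchyme markers to 407 to 504 FPKM over all samples. Erythroid markers summed to 5464 to 10841 FPKM and macrophage markers to 50.7 to 64.3 FPKM.

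As background, endothelial cells are held together by adherens junctions, where VE-cadherin acts, and by tight junctions, where claudins act. They read vascular endothelial growth factor through receptor tyrosine kinases of the VEGF receptor family and angiopoietins through Tie2, and their identity is kept by ETS family factors such as *Erg*, with SoxF factors such as *Sox17* acting above all in arteries. In the embryo, vessels and the neural crest derived mesenchyme of the face grow side by side.

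Promoters are shown for 5 of the genes, because 4 of them (*Kdr*, *Flt1*, *Tek* and *Emcn*) varied together over the samples and the last, *Cldn5*, varied the opposite way. Each runs from 250 bases before to 50 bases after the transcript start, 5′ to 3′ on the strand of the gene, from RefSeq on GRCm38.p6. Capitals mark 2 forms of ETS sites, both of which hold the letters GGAA, searched on both strands. One is CAGGAA, which reads TTCCTG where it lies on the strand not printed. The other is CCGGAA, which then reads TTCCGG.
*Kdr*, chr5:75978406-75978705, minus strand: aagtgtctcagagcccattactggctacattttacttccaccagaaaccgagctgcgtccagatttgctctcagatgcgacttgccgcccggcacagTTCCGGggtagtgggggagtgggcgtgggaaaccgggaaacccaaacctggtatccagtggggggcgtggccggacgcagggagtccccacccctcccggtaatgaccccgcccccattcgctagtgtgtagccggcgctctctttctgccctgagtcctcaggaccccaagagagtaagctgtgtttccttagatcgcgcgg
*Flt1*, chr5:147725962-147726261, minus strand: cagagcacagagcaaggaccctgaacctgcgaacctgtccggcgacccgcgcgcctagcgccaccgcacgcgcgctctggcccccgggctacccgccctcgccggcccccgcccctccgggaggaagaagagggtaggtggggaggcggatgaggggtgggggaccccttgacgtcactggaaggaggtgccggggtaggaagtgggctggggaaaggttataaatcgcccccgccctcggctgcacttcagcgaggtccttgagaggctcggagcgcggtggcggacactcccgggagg
*Tek*, chr4:94739039-94739338, plus strand: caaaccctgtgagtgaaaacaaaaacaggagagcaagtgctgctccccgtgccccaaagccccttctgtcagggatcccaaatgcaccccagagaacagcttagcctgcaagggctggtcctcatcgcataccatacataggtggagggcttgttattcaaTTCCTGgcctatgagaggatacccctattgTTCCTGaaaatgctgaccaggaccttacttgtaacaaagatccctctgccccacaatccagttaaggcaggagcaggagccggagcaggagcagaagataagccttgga
*Emcn*, chr3:137340828-137341127, plus strand: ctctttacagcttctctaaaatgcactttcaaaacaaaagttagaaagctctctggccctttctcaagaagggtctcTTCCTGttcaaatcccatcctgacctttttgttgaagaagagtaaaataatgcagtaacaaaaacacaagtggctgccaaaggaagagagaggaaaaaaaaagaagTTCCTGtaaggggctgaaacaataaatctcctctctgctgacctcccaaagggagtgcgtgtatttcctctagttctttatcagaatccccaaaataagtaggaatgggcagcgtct
*Cldn5*, chr16:18776597-18776896, plus strand: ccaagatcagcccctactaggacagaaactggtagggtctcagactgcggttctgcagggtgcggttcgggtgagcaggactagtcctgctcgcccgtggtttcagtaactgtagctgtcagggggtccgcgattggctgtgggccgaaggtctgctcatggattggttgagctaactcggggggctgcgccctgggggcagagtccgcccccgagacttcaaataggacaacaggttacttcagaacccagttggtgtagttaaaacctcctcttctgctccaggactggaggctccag
RefSeq promoters were matched for 7 of the 10 genes (9 promoters, of which *Erg* has 3) and not for *Pecam1*, *Cdh5* and *Sox17*. The ETS letters stood 2 times in the *Tek* promoter, 2 times in that of *Emcn*, 1 time each in those of *Kdr* and *Tie1*, and 1 time in 1 of the 3 promoters of *Erg*. Neither form was found in the *Flt1* and *Cldn5* windows, though the shorter GGAA stands in that of *Flt1*. So 5 of the 9 promoters (55.6%) held at least 1 of the 2 forms, against 41.4% of all 32851 promoters of the same length (30.6% for CAGGAA and 14.9% for CCGGAA). The core of SOX sites, ACAAT, was searched on both strands and was found in 3 of the 9 promoters (33.3%, those of *Tek* and *Emcn* and 1 of *Erg*) and in 31.0% of all promoters. One *Tek* match of it shares letters with an ETS match. Such matches are letters in a window, not binding sites.

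All 10 genes were detected in every sample, the lowest value being 1.52 FPKM for *Sox17* in control replicate 2. By the mean of the 6 samples, the order was *Cdh5* (24.9 FPKM), *Cldn5* (19.5), *Pecam1* (19.3), *Emcn* (18.6), *Kdr* (14.4), *Erg* (11.8), *Tie1* (11.4), *Tek* (5.88), *Flt1* (3.83) and *Sox17* (2.10). From *Cdh5* down to *Tie1*, the ranges of neighbours in this order overlapped. *Emcn* was nevertheless above *Kdr*, and *Kdr* above *Erg*, in 6 of 6 samples, whereas *Cdh5* exceeded *Cldn5* in 4, *Cldn5* exceeded *Pecam1* in 2, *Pecam1* exceeded *Emcn* in 3 and *Erg* exceeded *Tie1* in 3 of 6 samples. *Tie1*, *Tek*, *Flt1* and *Sox17* had ranges that did not overlap with the next. The highest of the 10 genes was *Cldn5* in the first replicate of both groups and *Cdh5* in the other 4 samples.

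**Figure D1:**
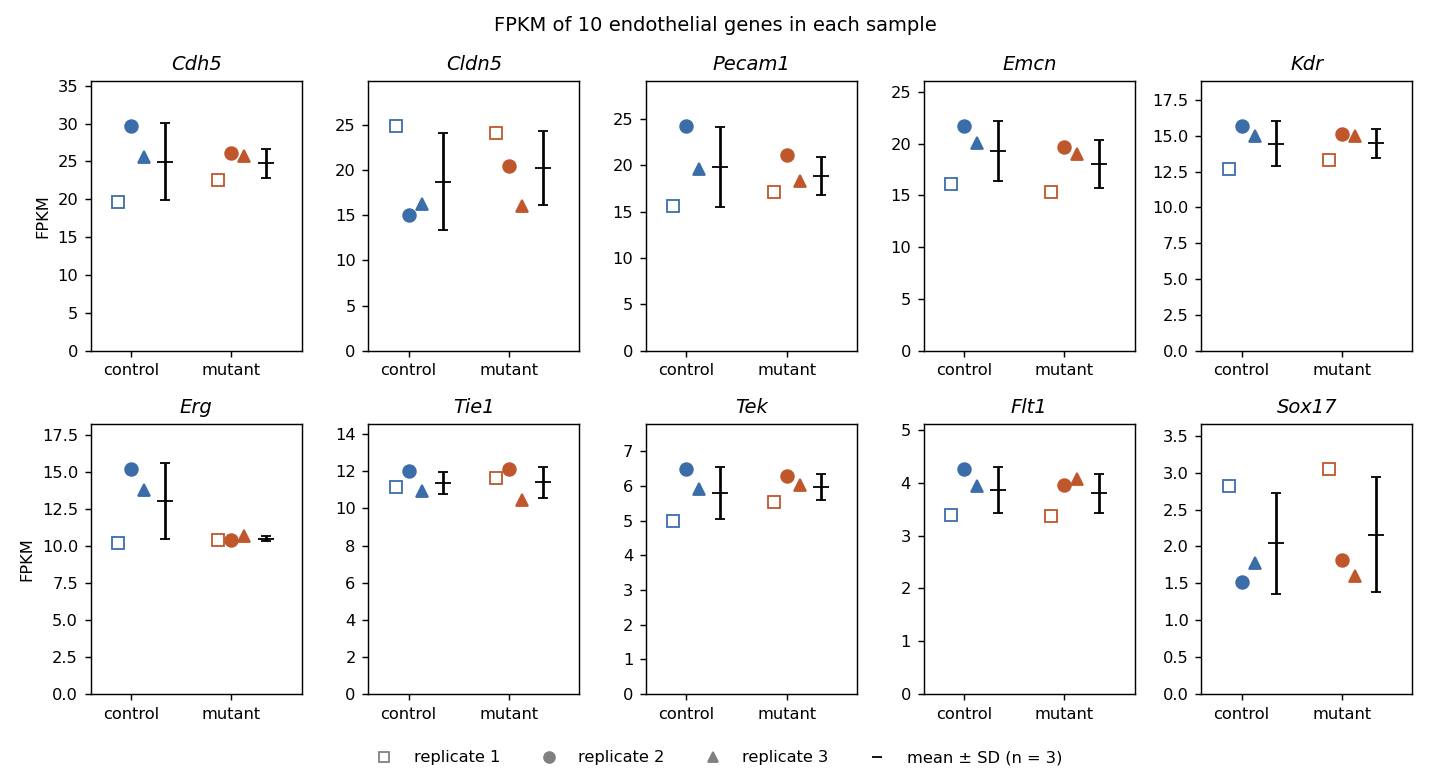
FPKM (vertical axes, starting at 0) of the 10 endothelial genes in 3 control and 3 mutant samples, ordered by mean level, with squares, circles and triangles for replicates 1, 2 and 3 and bars for mean ± SD (n = 3). In no gene did the values of the groups lie apart, and the open squares of the first replicates lie lowest in both groups for *Cdh5*, *Pecam1*, *Emcn*, *Kdr*, *Tek* and *Flt1* and highest for *Cldn5* and *Sox17*.

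The comparison of the genotypes asks whether endothelial transcripts changed when *Rbfox2* was deleted with Pax3Cre. None of the 10 genes passed the test. With the filter of the main fit, FPKM over 5 in all controls or all mutants, 8 genes were tested and 0 of them had an unadjusted p under 0.05, against 1.66% of the 10061 genes tested (0.706% higher and 0.954% lower in mutants). *Flt1* and *Sox17* were below this filter, and *Tek* passed only through the mutants, with 4.996 FPKM, just below the limit, in control replicate 1. With an FPKM filter of 1, all 10 could be fitted and 0 had an unadjusted p under 0.05 (background 2.27% of 13415 genes). In 0 of 10 genes did the values of the groups lie apart, against 5.96% of these genes. The median log2 difference of the 10 genes was 0.0039. That of all genes was 0.0018 past the FPKM filter of 1 and 0.0057 past the filter of 5. In size, the median was 0.043 for the 10 genes (FPKM filter of 1) and 0.054 for the 10061 genes past the filter of 5. By means on this scale, 6 genes were higher and 4 lower in mutants, and the summed FPKM of the 10 genes was 121, 146 and 133 in control replicates 1, 2 and 3 and 127, 137 and 127 in mutant replicates 1, 2 and 3.

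Among the junction and surface proteins, *Cdh5* encodes VE-cadherin, the adhesion molecule of endothelial adherens junctions (chr8:104101625-104144511). It had 19.6, 29.7 and 25.6 FPKM in control replicates 1, 2 and 3 and 22.6, 26.1 and 25.7 FPKM in mutant replicates 1, 2 and 3. Its group means of 25.0 ± 5.08 (SD, n = 3) and 24.8 ± 1.91 differed by 0.0064 in log2 (SE 0.15, 95% interval -0.35 to 0.36). The mutant values lay inside the control range. *Pecam1*, the platelet and endothelial cell adhesion molecule CD31, has its gene at chr11:106654217-106750628. Its values were 15.7, 24.2 and 19.6 FPKM in controls and 17.1, 21.1 and 18.3 FPKM in mutants, again with all mutants inside the control range. The log2 difference was -0.057 (SE 0.16, 95% interval -0.43 to 0.32). *Emcn* encodes endomucin, a sialoglycoprotein abundant on venous and capillary endothelium (chr3:137341067-137432185). It measured 16.1, 21.7 and 20.04 FPKM in controls and 15.4, 19.7 and 19.0 FPKM in mutants. Each mutant was below the control of the same number, by 0.062, 0.13 and 0.076 in log2, but the groups overlapped and the difference of -0.090 (SE 0.14) had an interval from -0.42 to 0.24. *Cldn5* encodes claudin-5, the main claudin of endothelial tight junctions (chr16:18776847-18778262). It had 24.9, 15.1 and 16.2 FPKM in controls and 24.2, 20.5 and 16.0 FPKM in mutants. The 2 first replicates were its highest samples, and mutant replicate 2 was the only other sample above 20 FPKM. Its log2 difference of 0.12 (SE 0.21) had an interval from -0.38 to 0.62, among the widest of the 10 genes.

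The VEGF receptors are *Kdr*, or VEGFR2, which carries most of the growth signal (chr5:75932827-75978458), and *Flt1*, or VEGFR1, which also acts as a trap for the ligand (chr5:147561604-147726011). *Kdr* had 12.7, 15.7 and 14.9 FPKM in controls and 13.3, 15.1 and 15.0 FPKM in mutants. The mutant mean was 100.2% of the control mean, and the log2 difference was 0.0064 (SE 0.10, 95% interval -0.24 to 0.25). *Flt1* was at a lower level, with 3.39, 4.26 and 3.94 FPKM in controls and 3.37, 3.95 and 4.07 FPKM in mutants, and differed by -0.019 (SE 0.11, 95% interval -0.28 to 0.24, FPKM filter of 1). In both receptors the lowest values of the 2 groups were those of the first replicates.

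*Tek* encodes Tie2, the receptor of the angiopoietins (chr4:94739289-94874976). It had 4.996, 6.48 and 5.93 FPKM in controls and 5.55, 6.29 and 6.04 FPKM in mutants, and all mutants were within the control range. Its log2 difference was 0.037 (SE 0.11, 95% interval -0.22 to 0.29). *Tie1*, the related receptor that modulates Tie2 (chr4:118471191-118490061), was the steadiest of the 10 genes, with 11.2, 12.0 and 10.9 FPKM in controls and 11.6, 12.1 and 10.5 FPKM in mutants. Its highest value was 1.16 times its lowest, and the within-group SD was 0.085 in log2, below the median of 0.131 over tested genes. The difference between the groups was 0.0013 (SE 0.088), with the narrowest interval of the 10 genes, from -0.21 to 0.21.

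Of the transcription factors, *Sox17* (chr1:4490931-4497354), a SoxF factor linked to arterial identity, had 2.81, 1.52 and 1.78 FPKM in controls and 3.05, 1.82 and 1.60 FPKM in mutants. The first replicates of both groups were its highest samples. Its log2 difference of 0.050 (SE 0.22) had the widest interval, from -0.46 to 0.56. The exons of *Sox17* overlap those of *Gm37587* on the opposite strand, and how reads were assigned by strand is not given in the sources used here, so this low value is uncertain. The library kit keeps strand information. *Cdh5* also overlaps a gene on the opposite strand, *Gm29682*, with no shared exon sequence.

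*Erg*, an ETS factor that maintains endothelial identity and junctions (chr16:95359169-95586593), had the largest difference of the 10 genes, and was singled out after its values were seen. It measured 10.2, 15.2 and 13.8 FPKM in controls and 10.4, 10.4 and 10.7 FPKM in mutants. The mutants lay close together, and control replicate 1 lay below all of them, whereas control replicates 2 and 3 lay above. The group means of 13.1 ± 2.57 (SD, n = 3) and 10.5 ± 0.159 differed by -0.27 in log2 (SE 0.14, 95% interval -0.60 to 0.052), and the mutant mean was 80.3% of the control mean. *Erg* did not pass the test (unadjusted p = 0.087 by limma with the FPKM filter of 1, as for the interval, and 0.086 in the main fit, adjusted p = 1.0). The exact two-sided permutation test gave p = 0.4, and the smallest p that 3 samples against 3 allow is 0.1. Between samples of the same number, the log2 difference was 0.027, -0.51 and -0.34 for replicates 1, 2 and 3. Without control replicate 1, the difference was -0.43, with an unadjusted p of 0.0015 and an adjusted p of 0.73 in limma. In that fit, 649 genes had an unadjusted p under 0.05, against 167 in the main fit. Over the 6 fits with 1 sample left out, the difference ranged from -0.43 to -0.16. On replicates 2 and 3 alone, it was -0.42 (SE 0.082), with an adjusted p of 0.32 in limma. There, *Erg* was the only one of the 10 genes with an unadjusted p under 0.05 (1 of 10, with the FPKM filter of 1), against a background of 10.6%. The other 9 genes differed by between -0.14 (*Pecam1*) and 0.20 (*Cldn5*) in those replicates.

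**Figure D2:**
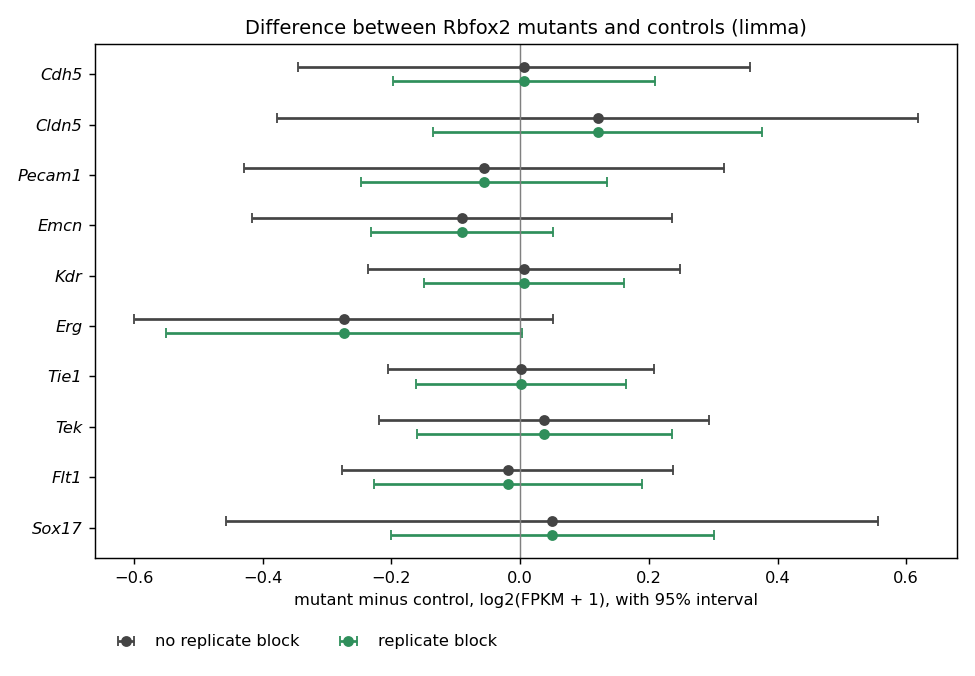
Difference in log2(FPKM + 1), mutant minus control, for each gene (limma, FPKM filter of 1), with its 95% interval, without (grey) and with (green) the replicate number as a block. All intervals include 0. For *Erg*, the interval reaches from -0.60 to 0.052 without and from -0.55 to 0.0023 with the block.

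The replicate numbers were taken as pairs, since deviations from the group means correlated over genes between samples of the same number (0.26 to 0.64). Replicates 2 and 3 were not well told apart by this, as control replicate 3 correlated with mutant replicate 2 at 0.40 and control replicate 2 with mutant replicate 3 at 0.23. With the number as a block, the intervals narrowed, and 0 of 10 genes had an unadjusted p under 0.05, against a background of 6.43%. The lowest adjusted p was 0.78, for *Erg*. As ratios of FPKM + 1, the unblocked intervals reached from 0.660 to 1.04 for *Erg* and from 0.849 to 1.19 for *Kdr*. The direction within pairs was mixed. In replicate 1, 7 genes were higher and 3 lower in the mutant, in replicate 2, 7 genes were lower, and in replicate 3, 6 genes were lower and 4 higher.

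*Erg* was next set against the other 9 genes in the same sample, which takes out a shift common to all of them. Relative to their mean, *Erg* stood at 0.018, 0.41 and 0.36 (log2) in control replicates 1, 2 and 3 and at -0.015, -0.092 and 0.050 in mutant replicates 1, 2 and 3. The difference was -0.28 (exact two-sided permutation p = 0.2). Mutant replicate 3 was above control replicate 1, and the groups overlapped. Each of the other 9 genes set against its own 9 companions differed by between -0.076 (*Emcn*) and 0.16 (*Cldn5*), and 0 of 10 had groups that lay apart.

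In size, the difference between the first replicates and the other samples exceeded that between the genotypes in each of the 10 genes but *Erg*, with both near 0 in *Tie1*. In 6 genes (*Cdh5*, *Pecam1*, *Emcn*, *Kdr*, *Tek* and *Flt1*), both first replicates were below all other 4 samples, and in *Cldn5* and *Sox17* they were above all of them. Such a low first pair was seen in 29.5% and such a high one in 18.5% of the 13415 genes past an FPKM of 1. The mean of *Cdh5* was 21.1 FPKM in the first replicates and 26.8 FPKM in the others, that of *Pecam1* 16.4 and 20.8 FPKM, and that of *Emcn* 15.7 and 20.1 FPKM. In log2, these 3 genes were lower in the first replicates by 0.33, 0.32 and 0.34, and *Kdr*, *Flt1* and *Tek* by 0.21, 0.21 and 0.20. *Cldn5* went the other way, from 24.5 FPKM in the first replicates to 17.0 FPKM in the others, as did *Sox17*, from 2.93 to 1.68 FPKM, log2 differences of 0.52 and 0.55. *Tie1* was 11.4 FPKM in both. Over all tested genes the median of this difference was -0.054, with 80% of genes between -0.37 and 0.25, so that *Cldn5* and *Sox17* were past the upper end of this range and none of the 10 genes past the lower end. For *Erg*, the first control was 0.46 below the other controls in log2, while the first mutant was 0.012 below the other mutants.

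**Figure D3:**
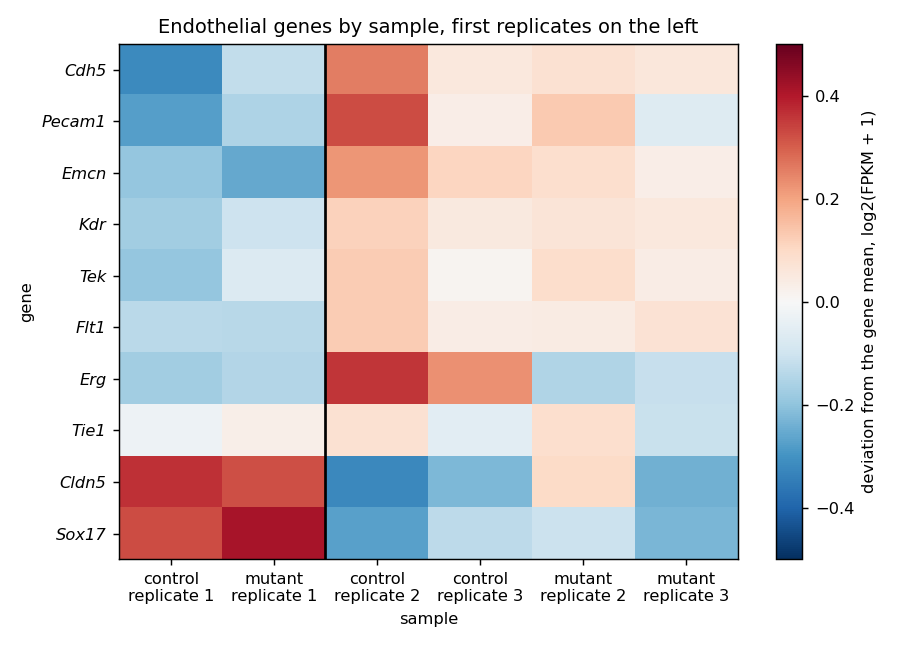
Deviation of each sample (columns, first replicates left of the line) from the mean of each gene (rows), in log2(FPKM + 1), blue for below and red for above. The first replicates are blue for the 6 genes from *Cdh5* to *Flt1* and red for *Cldn5* and *Sox17*, and *Erg* is red in control replicates 2 and 3 and blue in the other 4 samples.

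Over the 6 samples, which share their library and cell composition across genes, *Pecam1*, *Cdh5*, *Kdr*, *Flt1*, *Tek* and *Emcn* correlated with each other at Pearson's r between 0.855 and 0.979. *Erg* correlated with these 6 at 0.552 to 0.736 and *Tie1* at 0.058 to 0.536. *Cldn5* had an r of -0.93 to -0.73 with them, and *Sox17* of -0.99 to -0.79. These are descriptions of 6 points in which the first replicates carry much of the spread. *Cldn5* and *Tie1* had the highest GC content of the 10 transcripts (60.5% and 57.6%), *Cldn5* was the shortest (1416 bases) and *Emcn* had the lowest GC content (40.7%). Over 10005 tested genes with a transcript, the difference of the first replicates correlated with GC content at 0.127 and with log10 length at -0.030, and the part of GC content and length in the values of the 10 genes was not tested. The genes most like the mean of the scaled endothelial values over the 6 samples were *Col4a2*, *Fkbp10*, *AW551984*, *Sorbs3* and *Lama4* (r of 0.994 to 0.991), followed by *Ckap4*, *Add3*, *Ccdc8*, *Rbl2* and *Armcx6* (0.988 to 0.986). *Col4a2*, a chain of basement membrane collagen IV, had 45.5, 73.8 and 57.9 FPKM in controls and 50.7, 61.6 and 54.4 FPKM in mutants. *Lama4*, a laminin chain of vessel basement membranes, had 12.7, 24.4 and 17.6 FPKM in controls and 14.8, 18.6 and 15.5 FPKM in mutants. Both were lowest in the first replicates, and the mutants lay inside the control range. They were picked from the 10 for their place in basement membranes, and *Fkbp10* had the same pattern. It measured 43.2, 59.1 and 49.96 FPKM in controls and 45.5, 53.6 and 47.2 FPKM in mutants. These r are the highest among all tested genes, over only 6 samples.

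Another 8 lists held further genes of the vessel wall and its signals, from ligands to barrier proteins, and 51 of their genes were tested. Of these, 0 were higher and 4 were lower in mutants at an unadjusted p under 0.05 (7.84%, against 1.66% of all tested genes, and none with an adjusted p under 0.05). With the replicate block, 0 were higher and 5 lower (9.80%, against 3.70% of all tested genes that were lower). The lists were chosen with earlier results of these data known, so these shares are no independent comparison. The median log2 difference of the 51 genes was -0.021, against 0.0057 for all tested genes. Of the 51 genes, 30 were lower, and the share of all tested genes that were lower was not computed. The 4 genes were *Vegfa*, *Egfl7*, *Gja5* and *Gpr124*, 1 each from the ligands, the junction and surface genes, the arterial genes and the brain vessel barrier genes. Among them, the first replicates were below all others in 6 of the 51 genes (11.8%) and above all others in 14 (27.5%), against 34.7% and 18.4% of genes past the FPKM filter of 5.

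Of 8 VEGF ligands and coreceptors, 5 were tested and 1 had an unadjusted p under 0.05. *Vegfa*, the ligand of *Kdr* and *Flt1*, is made largely by cells around the vessel. It had 33.5, 27.4 and 25.3 FPKM in controls and 27.0, 16.0 and 19.6 FPKM in mutants. The log2 difference was -0.46 (SE 0.19, adjusted p = 1.0 by limma, and 0.66 with the replicate block). It was lower in the mutant in 3 of 3 pairs, but mutant replicate 1 was above control replicate 3 and the groups overlapped. *Nrp1*, a coreceptor for VEGF and semaphorins, differed by -0.18 (SE 0.14), also below the threshold. The 8 genes of the list summed to 132 to 147 FPKM in controls and 116 to 129 FPKM in mutants. Without *Vegfa*, the sums of the groups overlapped. In the angiopoietin and Tie list, 1 of 5 genes was tested, the Tie2 ligand *Angpt1*, with a difference of 0.040.

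In the list of 23 junction and surface genes, 15 were tested and 1 passed the unadjusted threshold. *Egfl7*, a secreted protein of endothelial cells that lies in the vessel matrix, had 36.7, 39.6 and 35.0 FPKM in controls and 32.2, 34.0 and 30.5 FPKM in mutants. Every mutant was below every control, and the log2 differences within pairs were -0.18, -0.22 and -0.19. The difference was -0.20 (SE 0.081, adjusted p = 1.0 by limma, and 0.77 with the replicate block). With the block, 2 genes of this list had an unadjusted p under 0.05, *Egfl7* and *Mcam* (-0.15, adjusted p = 0.82 by limma), which is named after its values were seen. *Calcrl*, a receptor for adrenomedullin, differed by -0.18 (SE 0.12).

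In the arterial list, 9 of 12 genes were tested and 1 passed the unadjusted threshold. *Gja5*, or connexin 40, a gap junction protein of arterial endothelium, had 6.02, 8.07 and 6.65 FPKM in controls and 5.46, 5.61 and 5.60 FPKM in mutants. The groups lay apart, and the difference was -0.26 (SE 0.11, adjusted p = 1.0 by limma, and 0.81 with the replicate block). *Cxcr4*, a chemokine receptor of arterial and tip cells, differed by 0.19 (SE 0.13) in the other direction. Among the brain vessel barrier genes, 8 of 10 were tested and 1 passed. *Gpr124*, a receptor that works with *Reck* in Wnt7 signaling to brain vessels and is also made by other cells, had 34.8, 42.2 and 35.8 FPKM in controls and 33.8, 29.2 and 28.5 FPKM in mutants. Its groups lay apart, with 34.8 FPKM in the lowest control and 33.8 FPKM in the highest mutant, and it differed by -0.29 (SE 0.11, adjusted p = 1.0 by limma). *Reck* differed by -0.16 (SE 0.11).

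The remaining vessel lists held 0 genes past the unadjusted threshold. They were the 9 tested of 15 endothelial transcription factors, where *Mef2c* differed by -0.26 and *Lmo2* by 0.16, the 4 tested of 5 venous and capillary genes, where *Nr2f2* differed by 0.22 and *Apln* by -0.12, and 1 tested lymphatic gene, *Pdpn*, at 0.016. *Mef2c* is also a muscle gene, and its values of 8.37, 13.0 and 9.69 FPKM in controls and 8.76, 9.11 and 7.35 FPKM in mutants overlapped.

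**Figure D4:**
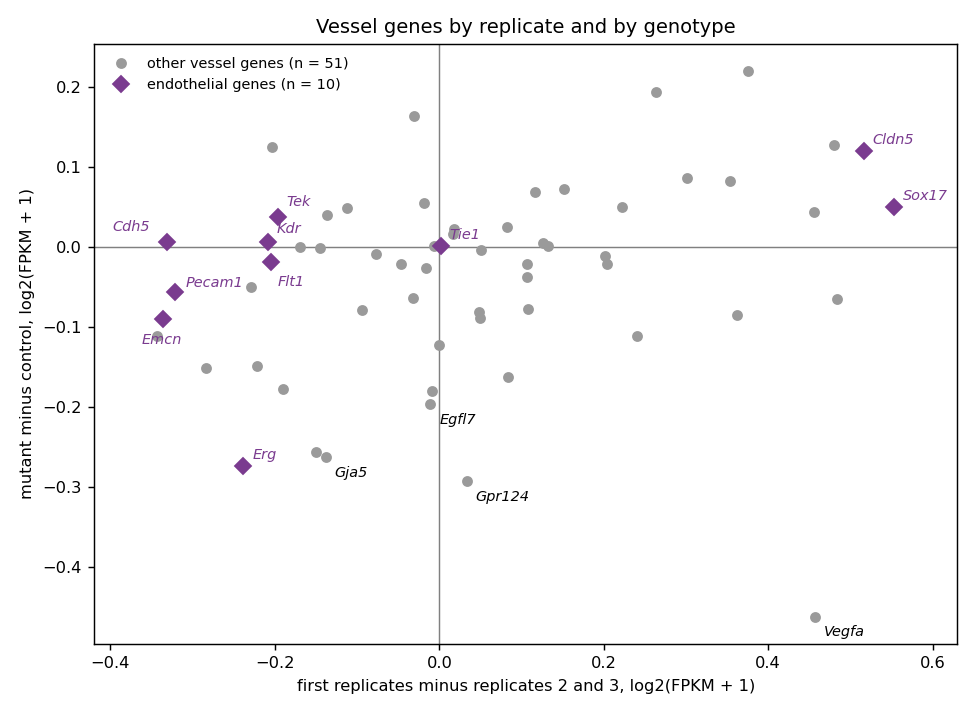
Difference of the first replicates from replicates 2 and 3 (horizontal) against the difference of mutants from controls (vertical), both in log2(FPKM + 1), for the 10 endothelial genes (purple diamonds) and 51 other vessel genes (grey points). *Kdr*, *Tek*, *Cdh5*, *Flt1* and *Tie1* lie near 0 on the vertical axis over a wide horizontal range, *Erg* lies lowest of the diamonds, and *Vegfa*, *Gpr124*, *Gja5* and *Egfl7* are the named grey points, those with an unadjusted p under 0.05.

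Markers of other cells in the tissue were examined beside the vessel genes. Of 10 neuron markers, 4 were higher in mutants at an unadjusted p under 0.05 (*Map2*, *Tubb3*, *Dcx* and *Elavl3*, by 0.32, 0.34, 0.26 and 0.23), none with an adjusted p under 0.05. The share of all tested genes that were higher at this threshold was 0.706%, as given above. With the replicate block, 7 of the 10 were higher, against 2.31% of all tested genes. These lists too were chosen with earlier results of these data known, so their shares are no independent comparison. The summed levels of the neuron markers lay apart between the groups, as given above, while those of the 10 endothelial genes overlapped. The part of the neuron markers in the values of *Vegfa*, *Egfl7*, *Gja5* and *Gpr124* was not tested. Of 6 skeletal muscle markers tested, 0 passed, with *Myod1* at -0.33 and *Myog* at -0.38, and 4 were lower with the block (*Myod1*, *Myog*, *Tnnt1* and *Actc1*), against 3.70% of all tested genes. Mural cell markers, of the cells that wrap vessels, summed to 137 to 175 FPKM in controls and 121 to 149 FPKM in mutants, with *Acta2* at -0.44 and *Tagln* at -0.34 and 0 of 5 tested past the threshold. *Acta2*, a smooth muscle actin that skeletal muscle of the embryo also makes, was lower in each pair, by 0.42, 0.36 and 0.55, and with the block it was 1 gene of 5 past the threshold (adjusted p = 0.38 by limma). Macrophage, platelet, erythroid, forebrain progenitor, choroid plexus, epithelium and cranial mesenchyme lists each held 0 genes past it in the main fit. With the block, 2 erythroid genes were higher (*Hbb-y* and *Hba-a2*) and 2 epithelium genes lower (*Krt5* and *Krt14*), and with the FPKM filter of 1 the macrophage gene *Cd68* was lower (-0.33), none with an adjusted p under 0.05. *Tnnt1*, *Actc1*, *Krt14* and *Cd68* are named after their values were seen. The genes closest to the threshold in these lists were *C1qb* (0.12) and *C1qc* (0.056), *Pf4* (0.22), *Hbb-y* (0.45) and *Hba-a2* (0.37), *Lhx2* (0.41) and *Fabp7* (0.24), *Ttr* (2.37), *Trp63* (-0.20) and *Krt5* (-0.43), and *Alx4* (-0.11) and *Alx1* (-0.10), as log2 differences. The groups overlapped in *Ttr*, with 56.1, 1.04 and 1.91 FPKM in control replicates 1, 2 and 3 and 27.4, 67.6 and 22.9 FPKM in mutant replicates 1, 2 and 3. Along with the 6 endothelial genes, the summed macrophage markers (50.7 to 52.0 FPKM against 57.4 to 64.3) and epithelium markers (140 to 144 against 145 to 230 FPKM) were lower in the first replicates, as were skeletal muscle markers (139 to 145 against 162 to 364 FPKM). The summed endothelial transcription factors (188 to 191 against 167 to 179 FPKM) and arterial genes (153 to 154 against 144 to 149 FPKM) were higher there. So were the brain vessel barrier genes (246 to 255 against 215 to 239 FPKM) and the venous and capillary genes (124.4 to 130.2 against 117.4 to 123.8 FPKM). *Nr2f2* is in both the transcription factor list and the venous list. It had 49.3 and 45.8 FPKM in the first replicates of controls and mutants and 29.4 to 43.7 FPKM in the other samples. Without *Nr2f2*, the first replicates and the other samples overlapped in both sums. The angiopoietin and Tie list was lower in the first replicates (9.57 to 11.1 against 11.7 to 14.2 FPKM), and the remaining vessel lists overlapped. The part of the other cell types in the endothelial values was not tested.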

How the data were processed

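RNA-Seq of 3 control and 3 *Rbfox2* mutant samples was grouped by the genotype and replicate number in the labels. The authors prepared stranded poly(A) libraries, aligned reads with STAR to GRCm38 and deposited FPKM values for 38553 genes; the submitters' processing notes also name FastQC 0.11.4 and Cuffdiff, and the other versions, the annotation and the use of strand in counting are not given in the sources used here. The 6 tables of single samples held the same values as the table of all samples (0 differences). FPKM keeps no read counts, so depth per value is unknown and no counting interval is given. The labels call the samples replicates and the methods call them independent biological replicates.

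Genes with FPKM over 5 in all controls or all mutants (10061) were tested on log2(FPKM + 1). The tool was limma (3.58.1, under R 4.3.3), fitted without covariates and with a trend in intensity, with Benjamini-Hochberg adjustment over all tested genes. An FPKM filter of 1 was used for intervals, so that all 10 endothelial genes could be fitted. Single values were compared by exact two-sided permutation tests. The main fit was tested on simulated data with noise independent between samples, and the alternative fits were not tested in this way.

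To check the pairing, the deviation of each control from its group mean was correlated over genes with that of the mutant of the same number (0.64, 0.26 and 0.51 for numbers 1, 2 and 3, against -0.68 to 0.40 between different numbers), and the pairing comes from these values, not from the labels. Alternatives were a pseudocount of 0.1, median-ratio scaling, quantile normalization, the replicate block, other FPKM filters, no trend, a Y-linked covariate, a first-replicate term, replicates 2 and 3 only, and each sample left out. The endothelial genes and lists were chosen with earlier results of these data known. Named genes are the 10 genes, *Rbfox2*, in each list the 2 tested genes with the smallest p (1 where 3 or fewer were tested) and any with an unadjusted p under 0.05, and the 10 genes most correlated with the mean of the scaled endothelial values. Gene coordinates are from GENCODE for GRCm38, which held 95.0% of the identifiers, and promoters are from RefSeq.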

Additional observations from a re-analysis of the deposited data

How the results depend on the processing

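Under 16 alternatives, the 10 endothelial genes gave 158 log2 differences, of which 0 passed an adjusted p of 0.05, 127 kept their direction and 31, none above 0.21 in size, changed it. *Erg* kept its direction in each (-0.43 to -0.16), and the lowest adjusted p of any was 0.32. Genes with an adjusted p under 0.05 numbered 0 in the main fit, 3 with the first-replicate term, 4 on replicates 2 and 3 only, and 0 to 1 with 1 sample left out (1 without mutant replicate 3). Genes with an unadjusted p under 0.05 numbered 167, and 604 with the replicate block, 304 with the FPKM filter of 1, 663 with no filter, 611 with the first-replicate term, 1103 on replicates 2 and 3 only, and 78 (without control replicate 2) to 649 (without control replicate 1) with 1 sample left out. Counts more than 1.5 times from 167 were also seen without mutant replicate 1 (413) and without mutant replicate 2 (108). Endothelial genes past it numbered 0, but 1 (*Erg*) with the first-replicate term, 1 on replicates 2 and 3 only, and 0 to 1 with 1 sample left out (1 without control replicate 1). The cause of these shifts was not tested. The replicate block changed no call on the 10 genes. On replicates 2 and 3 only, the direction turned for *Cdh5* (-0.089), *Kdr* (-0.025), *Tek* (-0.0075) and *Tie1* (-0.025). With the Y-linked covariate, which stands for sex, it turned for *Flt1* (0.064), *Tie1* (-0.11), *Sox17* (-0.21) and *Cldn5* (-0.18). With quantile normalization it turned for *Flt1* (0.0015), and with median-ratio scaling for *Tie1* (-0.0030). A pseudocount of 0.1 turned *Flt1* relative to the other endothelial genes (-0.0017). With 1 sample left out, the differences ranged from -0.21 to 0.092 for *Pecam1*, -0.15 to 0.14 for *Cdh5*, -0.079 to 0.065 for *Kdr*, -0.091 to 0.046 for *Flt1*, -0.051 to 0.11 for *Tek*, -0.040 to 0.056 for *Tie1*, -0.21 to 0.014 for *Emcn*, -0.14 to 0.22 for *Sox17* and -0.011 to 0.33 for *Cldn5*. Relative to the other endothelial genes, they ranged from -0.16 to 0.077 for *Pecam1*, -0.094 to 0.13 for *Cdh5*, -0.017 to 0.085 for *Kdr*, -0.064 to 0.069 for *Flt1*, -0.0028 to 0.065 for *Tie1*, -0.16 to 0.034 for *Emcn*, -0.14 to 0.32 for *Sox17* and -0.038 to 0.44 for *Cldn5*. The median of the endothelial genes moved between -0.12 and 0.052. With 3 samples against 3 and no read counts, true differences anywhere within the intervals given above remain possible. No limit of detection was computed, and even *Rbfox2*, with a log2 difference of -0.75, had an adjusted p of 0.138 by limma.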
